A study of Homo sapiens with 4 samples.

Results

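Nuclear receptors are transcription factors that bind small fat-soluble ligands, and 34 of their genes, bile acid sensors included, were followed in Caco-2 cells, a human colorectal adenocarcinoma line that takes on enterocyte features after confluence. A receptor counted as measured when a probe set carried its symbol and no other, and where several did, the brightest on average was used. That held for 29 of the 34 receptors, among 18417 genes measured in this way. Of these 29, 21 lay above a floor set at the 40th percentile of mean intensity over all 33297 probe sets (a log2 intensity of 4.84), as did 12900 of the 18417 genes. The 4 conditions were Transwell with cholate, Transwell with vehicle, plate with cholate and plate with vehicle, and each was measured on 1 array that held RNA pooled from 3 samples. Transwell inserts were collagen-coated membranes with separate apical and basolateral compartments, and plates were ordinary 6-well plates. Cholate, a primary bile acid given as its sodium salt, was applied at 2 mM for 3 h (apically on the inserts) in a buffer without added calcium, and the composition of the vehicle was not given in the sources used here. The labels give 21 days of differentiation for all conditions, whereas the growth protocol gives 14 days for plates and 14 to 21 days for inserts, so support and culture age cannot be told apart.

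Most nuclear receptors carry a zinc finger domain that reads variants of a short DNA hexamer and a ligand-binding domain that exchanges corepressors for coactivators when ligand arrives. Many of those that sense bile acids, oxysterols, retinoids, fatty acids or thyroid hormone work as heterodimers with a retinoid X receptor (RXR), while steroid receptors mostly work as homodimers. In the intestine, FXR (NR1H4) senses bile acids and induces SHP (NR0B2), FGF19 and the basolateral bile acid exporter. VDR, PXR (NR1I2) and CAR (NR1I3) also answer bile acids or their derivatives and drive detoxification, and LRH-1 (NR5A2) maintains epithelial renewal and local steroid synthesis.

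The measured set covered 4 of 7 genes grouped as bile acid, oxysterol and xenobiotic sensors, all above the floor: NR0B2, NR1H3, VDR and NR1I3. It held RXRA and RXRB above the floor with RXRG below it, RARG above with RARB below, all 3 PPAR genes above, and THRA, THRB and RORA above with RORB below. NR2C1, NR2C2, NR2F1 and NR2F6 were above it. Of the 5 steroid hormone receptor genes, NR3C1 alone lay above the floor, and ESR1, ESR2, NR3C2 and PGR lay below. ESRRA was above and ESRRG below, and NR5A2 and NR6A1 were both above. The receptor nearest the floor from above was NR0B2, with a mean of 5.16, and the nearest from below was NR3C2, with a mean of 4.40. NR1H4, NR1H2, NR1I2 and NR2F2 had no probe set under their symbol in the annotation used here, and the probe set of RARA was shared with BCOR, so these 5 were not analysed here. A log2 intensity depends on the probes, so levels are compared between arrays and not between receptors.

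**Figure D1:**
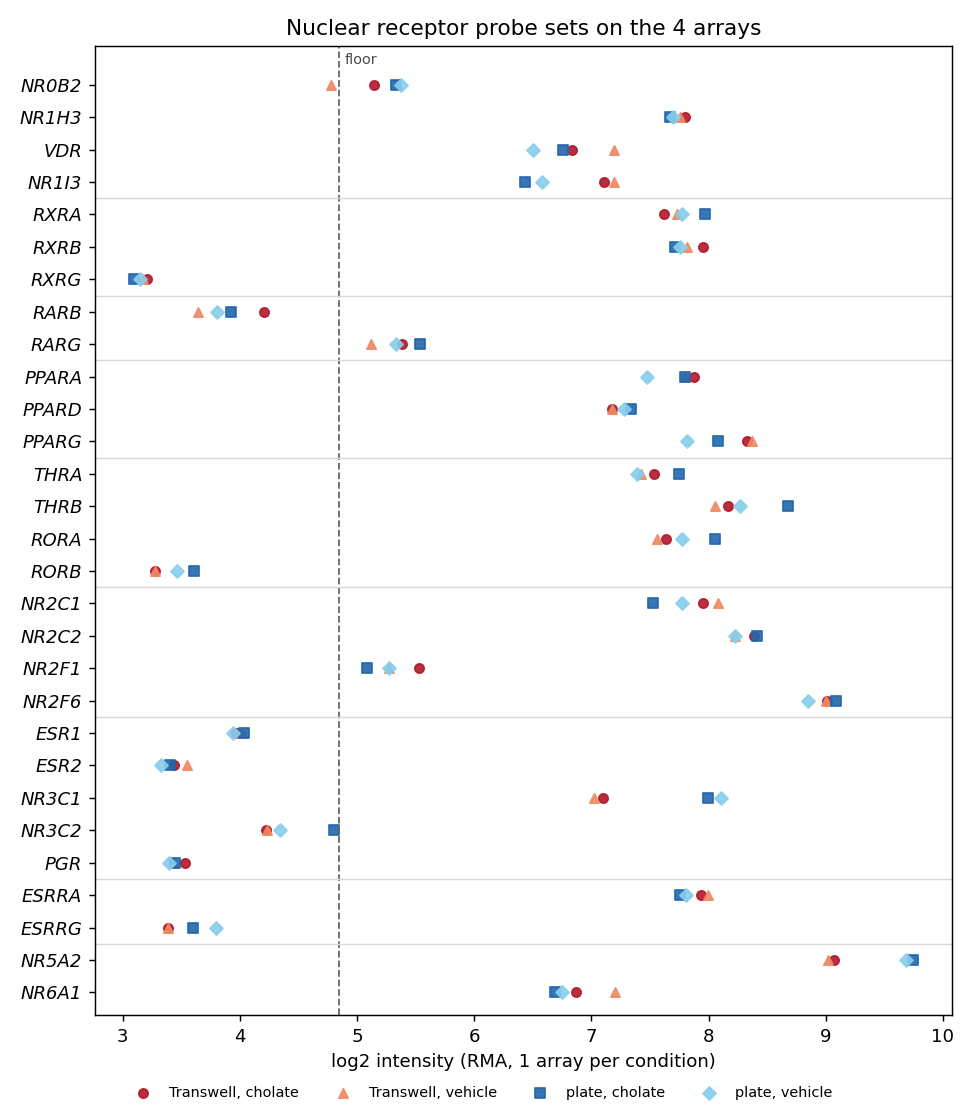
Log2 intensity (x axis) of the 29 measured receptors (rows, grouped by family) on the 4 arrays, 1 marker per condition, with the floor of 4.84 as a dashed line. NR3C1, NR5A2 and NR1I3 show the Transwell markers apart from the plate markers, and 8 receptors lie left of the floor. Others, PPARG, NR2C1, THRB and RORA among them, show the same with a smaller gap.

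The arrays were close to each other: over the probe sets above the floor they correlated at r of 0.977 to 0.993, and their medians over all probe sets were between 5.64 and 5.73. Of 11 measured markers of intestinal epithelium, 11 were above the floor, with a median level of 11.4 to 11.5 on each array. Above the floor were also 4 of 9 fibroblast and endothelial markers (median level 5.58 to 5.76), 4 of 8 measured leukocyte markers (6.98 to 7.43) and 4 of 7 measured goblet and enteroendocrine markers (7.52 to 7.99). Single markers differed between supports while the medians stayed close. CDX2, an intestinal transcription factor gene, read 9.48 in cholate and 9.68 in vehicle on Transwell, against 8.92 in cholate and 8.68 in vehicle on the plate. Transwell minus plate was 0.53 in cholate and 0.79 in vehicle for the peptidase gene ANPEP and 0.83 and 0.39 for the keratin gene KRT20. Other epithelial markers went the other way: -0.31 and -0.19 for CDH1, -0.17 and -0.28 for KRT18, and -0.32 and -0.04 for ALPI. The median difference over the 11 epithelial markers was -0.06 in cholate and 0.01 in vehicle. For the goblet cell gene ZG16 the difference was 0.54 and 0.86, for the hormone gene GIP -0.62 and -0.82, and for the macrophage marker CD68 -0.64 and -0.33. The part of these shifts in the receptors' differences was not tested. In bulk RNA, fewer cells of a type and less RNA per cell cannot be told apart.

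The first question was how the receptors differed between the supports. Transwell cultures had less RNA of the glucocorticoid receptor gene NR3C1 and of NR5A2, and more of NR1I3, in both treatments. At 1.5-fold or more, 1 receptor of 21 was higher on Transwell in cholate (NR1I3), against 4.02% of all 12900 genes, and 2 were lower (NR3C1 and NR5A2), against 3.75%. In vehicle, 2 were higher (VDR and NR1I3), against 1.93% of all genes, and 3 were lower (NR0B2, NR3C1 and NR5A2), against 3.16%. In both treatments together, 1 receptor was higher (1.19% of all genes) and 2 were lower (1.84%). These counts rest on few receptors, and whether the family differs from other genes was not tested. Both support differences were above 0 for 9 receptors (39.5% of all genes) and below 0 for 8 (33.2%). The median difference over the 21 receptors was -0.02 log2 in cholate and 0.03 in vehicle, against 0.02 in cholate and 0.02 in vehicle for all genes.

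No difference between 2 conditions has a replicate check. A limma fit over all 4 arrays, with terms for support and treatment, has 1 residual degree of freedom, so its standard errors come from how far the 2 treatments disagreed and from the spread over all probe sets, not from cultures. It called 0 of the 21 receptors for support at an adjusted p under 0.05, and 0% of all genes. At an unadjusted p under 0.05 it had 9 of 21 receptors, against 24.1% of all genes: NR0B2, NR1I3, PPARG, THRB, RORA, NR2C1, NR3C1, NR5A2 and NR6A1. With the floor at the 60th percentile, 3 of the 18 receptors left passed (NR3C1, NR5A2 and NR1I3), against 6.85% of the 9041 genes left. With an intensity trend in limma's prior, 2 of 21 passed (NR3C1 and NR5A2), against 1.8% of all genes. Counts this small rest on few receptors and were not tested against the shares of all genes.

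**Figure D2:**
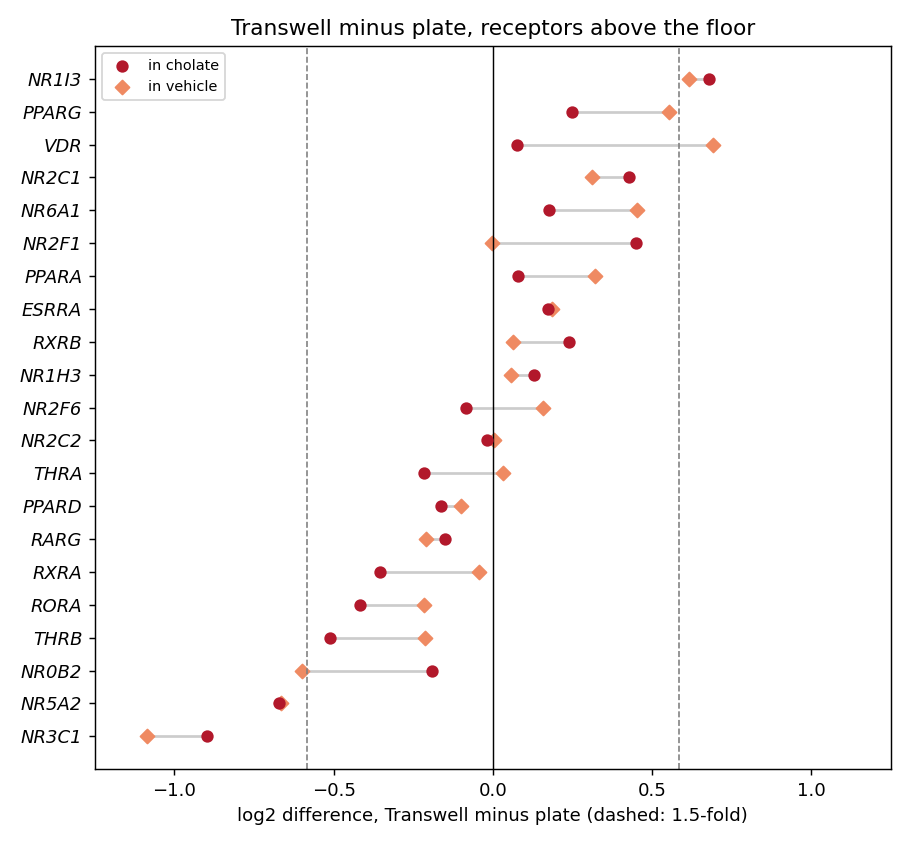
Log2 difference, Transwell minus plate (x axis), for the 21 receptors above the floor, in cholate (circles) and in vehicle (diamonds), 1 array a condition, with 1.5-fold marked by dashed lines. NR3C1 and NR5A2 lie left of the lower line in both treatments and NR1I3 lies right of the upper line in both, while VDR and NR0B2 pass a line in vehicle only.

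NR3C1 encodes the glucocorticoid receptor, which cortisol activates to induce anti-inflammatory and metabolic genes. Its log2 intensity on Transwell was 7.10 in cholate and 7.02 in vehicle, against 7.99 in cholate and 8.11 in vehicle on the plate. Both Transwell arrays were thus below both plate arrays, a difference of -0.90 log2 in cholate (1.86-fold lower) and -1.09 in vehicle (2.12-fold lower). The mean support difference was -0.99 with a limma SE of 0.10, a 95% interval of -1.27 to -0.71 and an adjusted p of 0.092. It was the largest range over the 4 arrays among the 21 receptors (1.09 log2).

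NR5A2 encodes LRH-1, an orphan receptor of gut and liver that regulates bile acid, cholesterol and steroid genes. It read 9.07 in cholate and 9.02 in vehicle on Transwell, against 9.74 in cholate and 9.68 in vehicle on the plate. The support difference was nearly the same in both treatments, at -0.67 log2 in cholate and -0.67 in vehicle (1.59-fold lower in each). Its mean was -0.67 with a limma SE of 0.09, a 95% interval of -0.91 to -0.43 and an adjusted p of 0.108.

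NR1I3 encodes CAR, a xenobiotic sensor that induces cytochrome P450, conjugation and efflux genes, mainly in liver. Its log2 intensity was 7.11 in cholate and 7.19 in vehicle on Transwell, against 6.43 in cholate and 6.58 in vehicle on the plate. Transwell was higher by 0.68 log2 in cholate (1.60-fold) and by 0.62 in vehicle (1.53-fold), with both Transwell arrays above both plate arrays. After cyclic loess normalization the vehicle difference of NR1I3 was below 1.5-fold. The mean was 0.65 with a limma SE of 0.09, a 95% interval of 0.40 to 0.90 and an adjusted p of 0.110.

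The promoters of these 3 receptors, which passed 1.5-fold between supports in both treatments, are shown from RefSeq (build GRCh38.p14). Each runs from 250 bases before to 50 bases after the transcript start listed at the top of the table for that gene, 5′ to 3′ on the gene's strand. Capitals mark the receptor hexamer AGGTCA on either strand. The windows are chr5:143404433-143404732 (minus strand) for NR3C1, which has 7 listed starts, chr1:200027460-200027759 (plus strand) for NR5A2, which has 2, and chr1:161238154-161238453 (minus strand) for NR1I3, which has 1.
NR3C1: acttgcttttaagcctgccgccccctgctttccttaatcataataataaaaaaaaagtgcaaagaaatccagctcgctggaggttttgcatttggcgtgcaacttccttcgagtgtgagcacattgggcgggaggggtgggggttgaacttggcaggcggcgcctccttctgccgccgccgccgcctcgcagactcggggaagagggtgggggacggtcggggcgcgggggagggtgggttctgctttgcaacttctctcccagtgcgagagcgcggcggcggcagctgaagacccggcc
NR5A2: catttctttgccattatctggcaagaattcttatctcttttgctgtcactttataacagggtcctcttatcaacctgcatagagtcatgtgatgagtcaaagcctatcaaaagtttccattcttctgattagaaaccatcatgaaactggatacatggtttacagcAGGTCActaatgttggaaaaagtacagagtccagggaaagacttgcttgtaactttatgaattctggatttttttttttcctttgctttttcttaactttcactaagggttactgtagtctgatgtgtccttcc
NR1I3: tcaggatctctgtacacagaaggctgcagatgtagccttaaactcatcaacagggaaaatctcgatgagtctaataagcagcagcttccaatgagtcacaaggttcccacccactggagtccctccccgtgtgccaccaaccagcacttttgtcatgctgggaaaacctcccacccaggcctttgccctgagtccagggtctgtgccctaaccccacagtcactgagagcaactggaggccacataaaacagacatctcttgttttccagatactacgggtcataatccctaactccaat

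Of the 3 windows, the hexamer was found in that of NR5A2, on the plus strand, with its first base 84 bases before the start. The window at the other NR5A2 start and those at the other 6 NR3C1 starts did not hold these letters. Promoter entries were found for 31 of the 34 receptors, 80 windows in all, and the hexamer stood in 14 of them (17.5%), against 13.8% of 35116 windows of the same length over all genes. The longer element TCAAGGTCA, which contains the hexamer and is the type LRH-1 binds as a monomer, stood in 0 of the 80 windows and in 0.353% of all. GC content was 61% for NR3C1, 36.7% for NR5A2 and 50.7% for NR1I3, against a median of 58.7% over all windows. A match of letters is not a binding site.

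NR0B2, grouped here with the sensors, encodes SHP, a receptor without a DNA-binding domain that represses bile acid synthesis and is induced by FXR. It read 5.14 in cholate and 4.77 in vehicle on Transwell, against 5.33 in cholate and 5.37 in vehicle on the plate. The Transwell vehicle value was the lowest and lay under the floor. The support difference was -0.19 log2 in cholate and -0.60 in vehicle (1.52-fold lower), with a mean of -0.40, a limma SE of 0.14 and an adjusted p of 0.213.

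VDR, the vitamin D receptor, also binds lithocholic acid, a secondary bile acid. Its log2 intensity was 6.83 in cholate and 7.19 in vehicle on Transwell, against 6.75 in cholate and 6.50 in vehicle on the plate. The vehicle array on Transwell was the highest and the vehicle array on the plate the lowest, and the cholate arrays lay between them, 0.08 log2 apart. In vehicle the Transwell value was higher by 0.69 (1.62-fold). The mean support difference was 0.39 with a limma SE of 0.18, the largest SE among the 21 receptors, and a 95% interval of -0.12 to 0.89.

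NR1H3 encodes LXR alpha, the oxysterol receptor that raises cholesterol efflux genes. It read 7.80 in cholate and 7.76 in vehicle on Transwell, against 7.67 in cholate and 7.70 in vehicle on the plate. These 4 values lay within 0.13 log2, the smallest range among the 21 receptors, with a limma 95% interval of -0.16 to 0.34 for support.

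RXRA and RXRB encode the common dimer partners of these sensors. RXRA read 7.62 in cholate and 7.73 in vehicle on Transwell, against 7.97 in cholate and 7.77 in vehicle on the plate. RXRB read 7.95 in cholate and 7.82 in vehicle on Transwell, against 7.71 in cholate and 7.75 in vehicle on the plate. The partners thus differed in opposite directions between supports, with means of -0.20 for RXRA and 0.15 for RXRB, and the limma 95% interval held 0 for each. All 3 probe sets of RXRB were higher on Transwell, by 0.18 to 0.24 log2 in cholate and by 0.01 to 0.09 in vehicle.

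RARG, a retinoic acid receptor gene, read 5.39 in cholate and 5.12 in vehicle on Transwell, against 5.54 in cholate and 5.33 in vehicle on the plate. Its mean support difference was -0.18 log2 (95% limma interval -0.43 to 0.07).

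PPARG, the fatty acid receptor that drives lipid storage and colonocyte differentiation, read 8.33 in cholate and 8.37 in vehicle on Transwell, against 8.08 in cholate and 7.81 in vehicle on the plate. Both Transwell values were above both plate values, by 0.25 log2 in cholate and 0.55 in vehicle. PPARA, which induces fatty acid oxidation, read 7.88 in cholate and 7.80 in vehicle on Transwell, against 7.80 in cholate and 7.48 in vehicle on the plate. The plate vehicle array was the low one. PPARD read 7.18 in both treatments on Transwell, against 7.34 in cholate and 7.28 in vehicle on the plate, and so ran the other way, by -0.16 and -0.10.

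THRB and THRA encode thyroid hormone receptors. THRB read 8.16 in cholate and 8.06 in vehicle on Transwell, against 8.68 in cholate and 8.27 in vehicle on the plate. THRA read 7.53 in cholate and 7.42 in vehicle on Transwell, against 7.75 in cholate and 7.39 in vehicle on the plate. THRB was lower on Transwell in both treatments (-0.51 in cholate and -0.21 in vehicle), whereas THRA was lower in cholate (-0.22) and close to 0 in vehicle (0.03). RORA, a receptor that activates clock genes, read 7.64 in cholate and 7.56 in vehicle on Transwell, against 8.05 in cholate and 7.77 in vehicle on the plate. As with THRB, the plate cholate array was the highest of the 4.

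The NR2 group holds orphan receptors that mostly repress. NR2C1, which encodes TR2, read 7.95 in cholate and 8.08 in vehicle on Transwell, against 7.52 in cholate and 7.77 in vehicle on the plate. Its Transwell values were higher by 0.43 and 0.31 log2, with a mean of 0.37, a limma SE of 0.09 and an adjusted p of 0.156. The related gene NR2C2, which encodes TR4, read 8.39 in cholate and 8.23 in vehicle on Transwell, against 8.41 in cholate and 8.22 in vehicle on the plate, and so differed by at most 0.02 between supports. NR2F1, which encodes COUP-TFI, read 5.53 in cholate and 5.27 in vehicle on Transwell, against 5.08 in cholate and 5.27 in vehicle on the plate. NR2F6 read 9.01 in cholate and 9.00 in vehicle on Transwell, against 9.09 in cholate and 8.85 in vehicle on the plate. Neither of these had a mean support difference whose limma 95% interval left out 0.

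ESRRA, an orphan receptor that raises mitochondrial genes, read 7.93 in cholate and 7.99 in vehicle on Transwell, against 7.76 in cholate and 7.80 in vehicle on the plate. The difference was 0.17 log2 in cholate and 0.19 in vehicle. NR6A1, a receptor known from germ cells and embryos, read 6.86 in cholate and 7.20 in vehicle on Transwell, against 6.69 in cholate and 6.75 in vehicle on the plate. Its Transwell vehicle array stood above the other 3.

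The second question was whether 3 h of cholate altered the RNA of the receptors above the floor. FXR (NR1H4) and PXR (NR1I2) were not measured, so the counts say nothing about them. On Transwell 0 of 21 receptors were at least 1.5-fold higher in cholate, against 0.357% of all genes, and 0 were lower, against 0.736%. On the plate 0 were higher, against 1.49% of all genes, and 0 were lower, against 2.35%. At these background shares less than 1 receptor of 21 would be called in any of the 4 counts, so the zeros do not set the receptors apart. The limma test called 0 receptors for cholate at an adjusted p under 0.05 (0% of all genes) and 0 at an unadjusted p under 0.05 (7.99% of all genes), with member adjusted p of 0.473 to 0.989.

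The direction of the responses varied among the receptors. Both cholate responses were above 0 for 9 receptors (26.1% of all genes): RARG, PPARA, PPARD, THRA, THRB, RORA, NR2C2, NR2F6 and NR5A2. They were below 0 on both supports for 4 (34.7% of all genes): NR1I3, NR2C1, ESRRA and NR6A1. The median response of the 21 receptors was 0.05 log2 on Transwell and 0.06 on the plate, against -0.01 on Transwell and -0.03 on the plate for all genes.

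**Figure D3:**
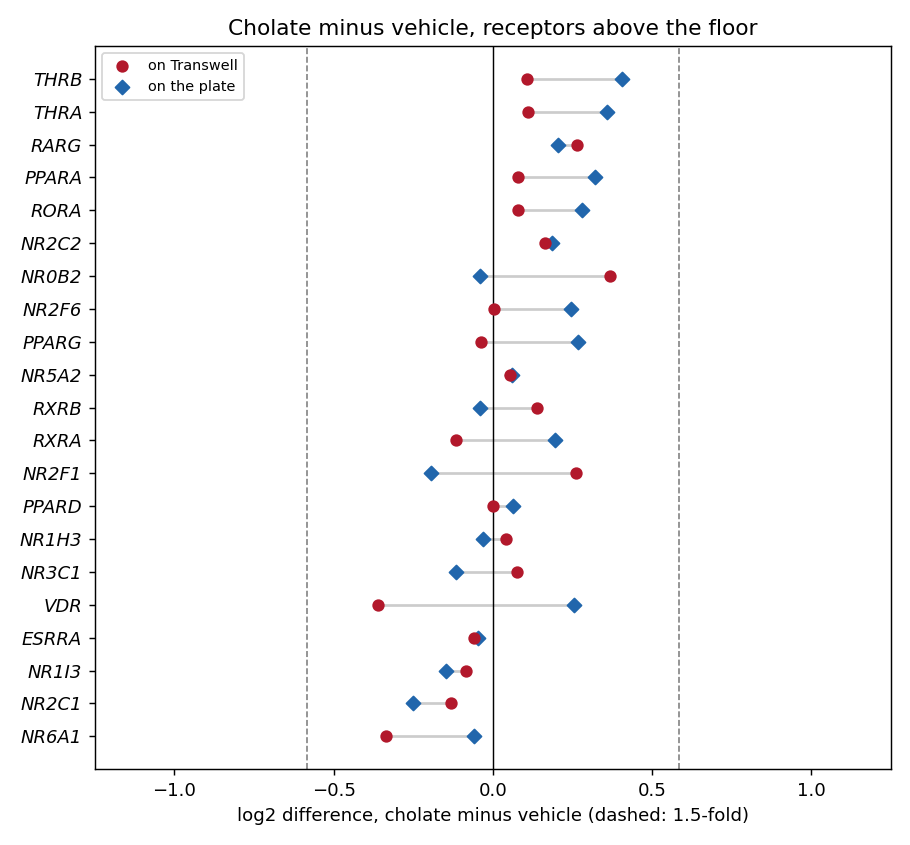
Log2 difference, cholate minus vehicle (x axis), for the 21 receptors above the floor, on Transwell (circles) and on the plate (diamonds), 1 array a condition, with 1.5-fold marked by dashed lines. All points lie between the dashed lines, from -0.36 for VDR on Transwell to 0.41 for THRB on the plate, and VDR has the widest gap between its 2 points.

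The most positive response was that of THRB on the plate, at 0.41 log2, against 0.11 on Transwell. THRA stood at 0.11 on Transwell and 0.36 on the plate, RORA at 0.08 and 0.28, and PPARA at 0.08 and 0.32. These 4 receptor genes had the same sign on both supports and the larger response on the plate. RARG had responses of 0.27 on Transwell and 0.21 on the plate, with a mean of 0.24 and a limma 95% interval of -0.01 to 0.48. NR2C2 was alike, at 0.16 on Transwell and 0.19 on the plate.

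In the sensor group, NR0B2, which FXR induces, had a response of 0.37 log2 on Transwell, against its vehicle value under the floor, and -0.04 on the plate. Over both supports the limma 95% interval for NR0B2 was -0.22 to 0.55, which still holds changes of up to 0.55 log2. VDR had -0.36 on Transwell and 0.26 on the plate. NR1I3 stood at -0.08 on Transwell and -0.15 on the plate. NR1H3 responded by 0.04 on Transwell and -0.03 on the plate, with a limma interval of -0.24 to 0.25.

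RXRA stood at -0.11 on Transwell and 0.20 on the plate, and PPARG at -0.04 and 0.27. NR3C1 and NR5A2, the receptors furthest below the plate on Transwell, had cholate responses close to 0 on each support, at 0.08 on Transwell and -0.11 on the plate for NR3C1 and at 0.05 and 0.06 for NR5A2. NR2C1 stood at -0.13 on Transwell and -0.25 on the plate, and NR6A1 at -0.34 and -0.06.

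The response on Transwell minus that on the plate reached 1.5-fold for 1 of the 21 receptors, VDR, at -0.62 log2, against 3.05% of all genes. This difference uses all 4 arrays and has no test, and after quantile or cyclic loess normalization 0 receptors reached it. For VDR the 2 vehicle arrays were the extremes.

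The 8 receptors below the floor had mean intensities of 3.15 to 4.40 and single values of 3.09 to 4.81, all under the floor, where RMA compresses differences. RARB, which retinoic acid induces in many cells, had its highest value of 4.20 in Transwell cholate, against 3.65 in Transwell vehicle, 3.93 in plate cholate and 3.80 in plate vehicle. NR3C2, the mineralocorticoid receptor gene, had its highest value of 4.81 in plate cholate, with 4.34 in plate vehicle, 4.22 in Transwell cholate and 4.23 in Transwell vehicle. Its Transwell value in cholate was thus -0.59 log2 against the plate, the single difference at 1.5-fold among these 8. ESRRG, an orphan relative of ESRRA, read 3.39 in both treatments on Transwell, against 3.60 in cholate and 3.80 in vehicle on the plate. The estrogen receptor genes ESR1 and ESR2 varied over the arrays by 0.10 and 0.22 log2, RXRG by 0.11, PGR, the progesterone receptor gene, by 0.14 and RORB by 0.34.

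Genes that the receptors regulate, and the coregulators they recruit, were taken from lists of well-known partners and targets. Limma called 0 genes in any of these lists for either effect, so the lists are described by counts at 1.5-fold in both treatments or on both supports. Of all 12900 genes, 1.19% were higher and 1.84% lower on Transwell in both treatments. The lists held 5 to 15 genes, so a count of 1 or 2 rests on few genes, and no list was tested against these shares. Of 10 targets of glucocorticoid and mineralocorticoid receptors above the floor, 1 was lower on Transwell in both treatments and 0 were higher. That gene was DUSP1, a MAP kinase phosphatase that many stimuli besides glucocorticoids induce, at -0.97 log2 in cholate and -1.04 in vehicle. The median of the list was -0.11 in cholate and -0.05 in vehicle.

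Of 7 LRH-1 target genes above the floor, NR0B2 among them, 0 passed 1.5-fold between supports in both treatments. CYP19A1, the aromatase gene, stood at -0.44 in cholate and -0.63 in vehicle, and SCARB1, the lipoprotein receptor SR-B1, at -0.59 and -0.40, with a list median of -0.19 in each treatment. For cholate, CYP19A1 was the single gene of the list lower by 1.5-fold on both supports (0.504% of all genes), at -0.95 log2 on Transwell and -1.14 on the plate. CYP11A1, which starts steroid synthesis from cholesterol, stood at -0.55 on Transwell and -0.89 on the plate. NR5A2 itself had responses of 0.05 and 0.06 there.

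Of 6 PXR and CAR target genes above the floor, 2 were lower on Transwell in both treatments and 0 were higher, while NR1I3 was higher there. The lower ones were the glutathione transferase genes GSTA1 (-0.84 in cholate and -0.73 in vehicle) and GSTA2 (-0.89 and -0.64), which are close paralogs whose probes may share signal. The efflux pump gene ABCB1 was higher on Transwell, at 0.56 in cholate and 0.54 in vehicle, just short of 1.5-fold. The list median was -0.28 in cholate and -0.25 in vehicle. Of 7 VDR targets, 2 were higher on Transwell in both treatments and 0 lower: S100G, the calcium-binding protein calbindin-D9k (1.41 and 0.69), and the manganese transporter gene SLC30A10 (0.62 and 0.60).

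Among 12 genes of FXR output and bile acid handling above the floor, 1 was higher on Transwell in both treatments and 1 was lower. SLC51A, which with SLC51B forms the transporter that passes bile acids to the blood side, was higher by 1.81 log2 in cholate and 2.33 in vehicle. DIO1, a deiodinase that makes active thyroid hormone, stood at -0.83 and -1.06, and it was also the 1 of 6 thyroid hormone receptor targets that passed in both treatments. For cholate, 0 of the 12 passed 1.5-fold on both supports. On the plate 2 passed, against 1.49% of all genes higher and 2.35% lower there. They were SLC51A, with responses of 0.07 on Transwell and 0.59 on the plate, and the glucuronosyltransferase gene UGT2B4, with -0.07 and -0.69, which is named here after its values were seen. FABP6, which carries bile acids inside enterocytes, had responses of 0.41 on Transwell and 0.23 on the plate, and SLC51B had 0.25 and 0.08.

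Of 10 LXR targets, 1 was lower on Transwell in both treatments and 0 higher. It was ABCA1, the cholesterol efflux pump gene, at -1.64 log2 in cholate and -1.37 in vehicle, while NR1H3 stood at 0.13 and 0.06. Retinoid genes likewise had 1 of 13 lower and 0 higher in both treatments, RBP4, the plasma retinol carrier gene, at -1.33 and -1.11. Of 5 estrogen and progesterone receptor targets 1 was higher and 0 lower, the trefoil factor gene TFF1, at 0.99 and 0.98.

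In the PPAR list (14 genes above the floor) and the ESRRA list (8, ESRRA included), 0 genes passed in both treatments in either direction. Of 15 coactivators and corepressors, NCOA7 was lower on Transwell (-0.95 and -0.79) and 0 were higher. The medians of this list were between -0.05 and 0.06 log2 in all 4 comparisons. Of 8 further nuclear receptors above the floor, 1 was lower in both treatments: NR4A1, an orphan receptor induced within minutes of many stimuli, at -1.08 in cholate and -0.85 in vehicle. HNF4G, a receptor of enterocyte identity, had Transwell minus plate differences of 0.49 in cholate and 0.50 in vehicle. In the cholate comparison, 1 of the 8 was higher on both supports by 1.5-fold (0.178% of all genes) and 0 were lower (0.504%). This was NR4A2, a relative of NR4A1, at 0.79 on Transwell and 1.27 on the plate. Higher on both supports were also NR4A1, at 0.57 and 0.80, NR4A3, at 0.29 and 0.56, and HNF4G, at 0.22 and 0.23. NR1D1, NR1D2, NR2E1 and NR2E3 had responses of opposite sign on the 2 supports.

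**Figure D4:**
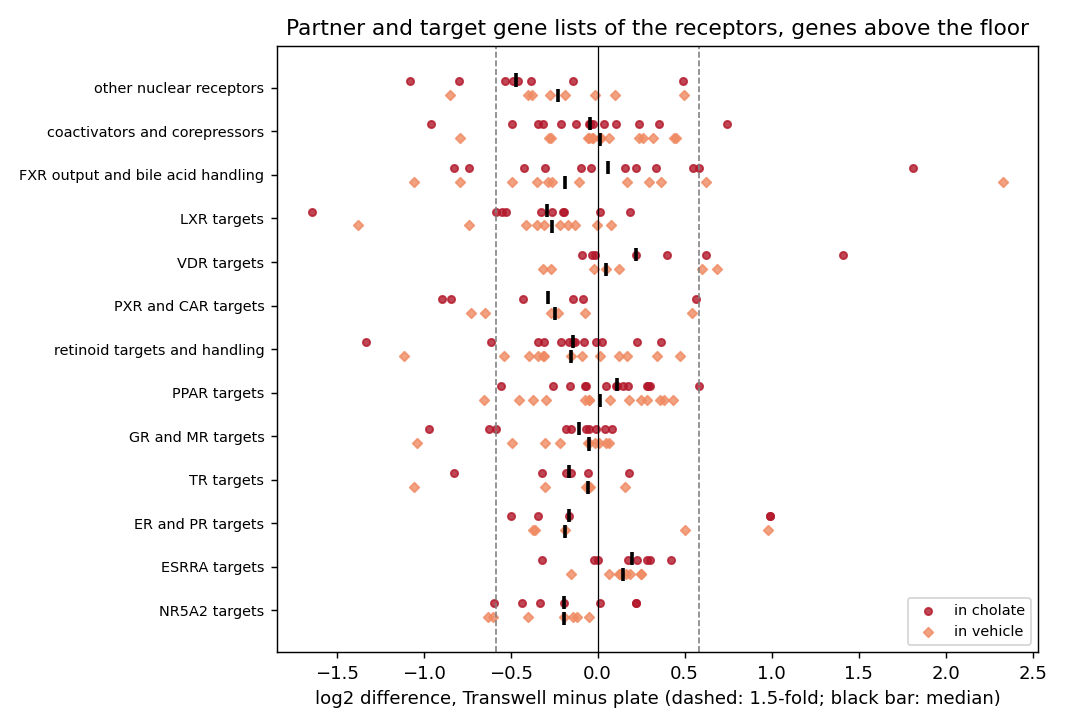
Log2 difference, Transwell minus plate (x axis), of each gene above the floor in 13 lists of receptor partners and targets (rows), in cholate (circles) and in vehicle (diamonds), with list medians as black bars and 1.5-fold as dashed lines. GR, MR, TR, ER and PR stand for the glucocorticoid, mineralocorticoid, thyroid hormone, estrogen and progesterone receptors. SLC51A is the point furthest right (1.81 in cholate and 2.33 in vehicle) and ABCA1 the point furthest left (-1.64 and -1.37).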

How the data were processed

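RNA from Caco-2 cells was measured on 4 whole-transcript Affymetrix arrays, 1 per combination of 2 supports and 2 treatments, each holding a pool of RNA from 3 samples per the labels. Values deposited by the authors were log2 intensities of 33297 probe sets, made with RMA (background correction, normalization between arrays, probe summary) per the submitters' processing notes; its software, version and probe set definition were not given in the sources used here. Because RMA aligns the arrays' distributions, a shift common to most genes is hidden. Symbols came from the platform annotation (19460 of 33297 probe sets had 1 symbol, 1754 several and 12083 none listed), and all 29 measured receptors had the same symbol in RefSeq by gene number.

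Differences of 2 arrays were called at 1.5-fold with no test. The test was limma 3.58.1 in R 4.3.3 (lmFit and eBayes, additive model of support and treatment, 2-sided, prior of 2.83 degrees of freedom), on the 19978 probe sets at or above the floor, with Benjamini-Hochberg adjustment over all of them, and the fit was tested on simulated data. The number of arrays limits the precision. By the rule written at the start, receptors shown with all 4 values include those past 1.5-fold in any comparison and the sensor group. They also include those at least 1.2-fold apart the same way on both supports or in both treatments. The other receptors were added. Most partner and target genes named are among the list members with the largest smaller difference of the same sign. UGT2B4, NR4A3, NR1D2 and NR2E1 were named outside that rule. The members and lists were chosen with earlier results of these data known. Alternatives were 3 normalizations, 2 floors, averaged probe sets, a 1.3-fold threshold and an intensity trend in the prior.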

Additional observations from a re-analysis of the deposited data

Results flagged for a closer look

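Among the 21 receptors above the floor, 8 had cholate responses of opposite sign on the 2 supports, as had 39.1% of all 12900 genes. The response on Transwell minus that on the plate was -0.62 log2 for VDR, 0.45 for NR2F1, 0.41 for NR0B2, -0.31 for RXRA, -0.31 for PPARG, 0.19 for NR3C1, 0.18 for RXRB and 0.072 for NR1H3. These differences were not tested, since they use all 4 arrays. For RXRB the opposite signs held for the probe set used. Its other probe sets had responses above 0 on both supports, at 0.19 on Transwell and 0.005 on the plate, and at 0.11 and 0.03.

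Support differences had opposite signs in the 2 treatments for 4 receptors, against 27.1% of all genes. The difference in cholate minus that in vehicle was 0.45 for NR2F1, -0.25 for THRA, -0.24 for NR2F6 and -0.023 for NR2C2, again without a test.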

How the results depend on the processing

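No paired analysis was possible because each condition had 1 array, and no array could be left out for the same reason. Of 76 recomputed counts of receptors, 67 stayed within 1.5 times the reported count and 9 moved. After quantile or cyclic loess normalization 0 receptors had a difference of responses at 1.5-fold (VDR as reported, against 3.3% of all genes after quantile and 3.15% after cyclic loess), and after cyclic loess 1 receptor was higher on Transwell in vehicle (VDR, without NR1I3, against 1.72% of all genes). At 1.3-fold, 1 receptor was higher in cholate on the plate (3.78% of all genes), 3 were higher (11.6%) and 4 lower (9.19%) on Transwell in cholate, and 4 were higher on Transwell in vehicle (6.88%). For the limma support effect, 3 receptors passed with the floor at the 60th percentile (6.85% of all genes left) and 2 with an intensity trend in the prior (1.8%), and the cause was not tested. Over 7 alternatives the mean support difference ranged from -1.02 to -0.96 for NR3C1 (adjusted p of 0.020 to 0.178), from -0.71 to -0.64 for NR5A2 (0.030 to 0.198) and from 0.64 to 0.68 for NR1I3 (0.032 to 0.202). Without a floor NR3C2 was also lower on Transwell in cholate. Values near the floor, as for NR0B2, RARG and NR2F1, limit what a difference can show.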

Other observations

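The array on which a receptor had its highest value was plate cholate for 9 of the 21 receptors (42.9%), against 26.2% of all genes above the floor: RXRA, RARG, PPARD, THRA, THRB, RORA, NR2C2, NR2F6 and NR5A2. Plate cholate was also the lowest array for 7 receptors (33.3%, against 34.5% of all genes): NR1H3, NR1I3, RXRB, NR2C1, NR2F1, ESRRA and NR6A1. For RXRB this held for the probe set used. Its other probe sets were lowest in plate vehicle, at 7.73 against 7.74 in plate cholate and at 7.63 against 7.66. Transwell cholate was the lowest for 1 receptor, RXRA (23.2% of all genes). The median range over the 4 arrays was 0.45 log2 for the 21 receptors and 0.31 for all genes, and 6 receptors, NR0B2, VDR, NR1I3, THRB, NR3C1 and NR5A2, spanned at least 1.5-fold between their lowest and highest array (28.6%, against 15.3% of all genes).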
